A study of Homo sapiens with 8 samples.

Results

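The proteasome subunit genes described here were every protein-coding gene whose symbol begins with PSMA, PSMB, PSMC, PSMD, PSME, PSMF or PSMG and a digit, which gave 48 of the 34164 genes listed in either of 2 expression tables. The inhibitor table listed 47 of them among 31582 genes and the shRNA table listed 48 among 28942. The members comprised 7 alpha ring and 7 beta ring genes of the 20S core, 6 ATPase, 3 non-ATPase base and 8 lid genes of the 19S particle, 3 immunosubunits, 5 activators and inhibitors, 4 chaperones of 20S assembly, 3 chaperones of 19S assembly and the testis-type alpha subunit PSMA8. PSMC3IP, a DNA recombination cofactor, matched the symbol pattern without being a subunit. It is included in counts of the 48 members and not in those of the core genes. The 31 genes of the 20S and 19S particles without the immunosubunits are called the core genes below.

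RNA sequencing was performed in Kyse510, an established human esophageal squamous cell carcinoma (ESCC) line, to ask which genes respond when LSD1, which removes histone methyl groups, and G9a, which adds them, are inhibited or depleted. The inhibitor table held 4 libraries, from DMSO vehicle cells, whose time on DMSO the labels do not give, and from cells kept for 2 days with the LSD1 inhibitor SP2509 at 7 µM, with the G9a inhibitor UNC0642 at 7 µM, or with both compounds, whose doses in the combination the labels do not give separately. The other 4 came from a line carrying a doxycycline (Dox)-inducible shRNA to LSD1 (shLSD1) and from one carrying an inducible shRNA to G9a (shG9a), each without Dox or with Dox for 2 days, after lentiviral transduction and 14 days of puromycin selection. Induced cells were set against uninduced cells of their own line, so Dox itself and the shRNA cannot be told apart, and the uninduced cells carried the integrated vector too. Every condition had 1 library, so no comparison has a replicate check and no p-value between conditions is reported. An unadjusted counting test on the reads of the 2 libraries served only as an alternative setting.

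Values are FPKM (fragments per kilobase of transcript scaled to the mapped fragments of the library), which allow levels to be compared between genes of different length within a table. A gene was called higher or lower when its ratio of FPKM + 1 to the control was at least 1.3 in that direction and it had at least 1 FPKM in either library. Library totals, recovered from the steps of the FPKM values, were 15662035 to 17889466 reads. Intervals given with FPKM ratios are 95% counting intervals, which cover the sampling of reads in 2 libraries and not the spread between cultures. In bulk libraries a lower level per cell and fewer cells with the transcript cannot be told apart. The targeted genes were read first: LSD1 (KDM1A) was at 26.0 FPKM in shLSD1 without Dox and 6.29 FPKM with Dox, and G9a (EHMT2) was at 7.85 and 4.76 FPKM in shG9a. These transcripts were also called elsewhere. EHMT2 was lower with both compounds, at 5.38 FPKM against 11.1 FPKM on vehicle (log2 ratio -0.93, against -0.62 in shG9a). KDM1A was higher in shG9a with Dox, at 35.8 FPKM against 26.4 FPKM (0.43). The epithelial marker EPCAM stood between 101 and 206 FPKM in all 8 libraries, KRT5 between 74.6 and 734 FPKM and TP63 between 18.3 and 127 FPKM. KRT14 and KRT6A were lower, at 1.10 to 10.1 and 0.676 to 20.03 FPKM. The leukocyte markers PTPRC and CD68 did not exceed 0.0522 FPKM. Of the fibroblast markers, COL1A1 reached 5.36 FPKM, COL1A2 0.0108 FPKM and DCN 0.0494 FPKM, and of the endothelial markers CDH5 reached 14.0 FPKM, VWF 1.42 FPKM and PECAM1 0.569 FPKM.

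The proteasome degrades proteins tagged with ubiquitin. Its 20S barrel has outer alpha rings that gate entry and inner beta rings whose beta1, beta2 and beta5 sites cut the substrate, and its 19S cap recognises, deubiquitinates, unfolds and feeds the substrate through a ring of ATPases. Interferon replaces the catalytic subunits PSMB6, PSMB7 and PSMB5 by the immunosubunits PSMB9, PSMB10 and PSMB8 and induces the PA28 activator PSME1/PSME2, which changes the peptides offered to MHC class I, whereas the factor NRF1 (NFE2L1) raises the core genes together through antioxidant response elements (ARE) when proteasome activity falls.

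The promoters of the members held letters of both kinds of element, which did not divide between the immunosubunits and the core genes. The printed matches are a selection. RefSeq promoter windows (build GRCh38.p14, 250 bases before to 50 bases after a start) were matched by symbol for 42 of the 48 members, in 52 windows, and PSMA7, PSMB1, PSMB6, PSMB7, PSMD4 and PSMG3 had no window. On either strand, the core of the interferon-stimulated response element (ISRE), GAAA, any 2 bases and GAAA, was present in 7 of the 52 windows, 13.5%, against 3.57% of 35116 promoters of all genes. The 7 genes were PSMB8, PSMB10, PSME1, PSME2, PSMG4, PSMA4 and PSMB4, and the matches of the core genes PSMA4 and PSMB4 are not printed. The immunosubunit PSMB9 was not among these 7 genes. In 5 of them the match read GAAAGCGAAA or its reverse complement, a spelling singled out after it was seen and present in 0.0997% of all promoters. The windows of these 5 genes are printed 5′ to 3′ on the gene's own strand, with the ISRE core in capitals.

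PSMB8, chr6:32844032-32844061, minus strand: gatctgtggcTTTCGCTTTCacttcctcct
PSMB10, chr16:67936852-67936881, minus strand: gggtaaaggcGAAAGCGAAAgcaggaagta
PSME1, chr14:24136189-24136218, plus strand: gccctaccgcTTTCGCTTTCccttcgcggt
PSME2, chr14:24146619-24146648, minus strand: cctggggagtGAAAGCGAAAgcccgggcga
PSMG4, chr6:3258904-3258933, plus strand: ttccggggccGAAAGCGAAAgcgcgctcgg

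The ARE core TGACNNNGC was present on either strand in 15 of the 52 windows, 28.8%, against 13.3% of all promoters. It was found for the core genes PSMA4, PSMB3, PSMC4, PSMC5, PSMD1, PSMD3 and PSMD12, and for PSMB9, PSME1, PSME2, PSME4, PSMG1, PSMG2, PSMD5 and PSMD9. PSMC5 had a match upstream, at bases -57 to -49 from the start, that is not printed, and it was called only as lower with SP2509. The matches of PSMC4 and PSMD1 lay after the start. Matches of PSMB9, PSME1, PSME2 and the other members outside the core are not printed either. The matches upstream of 4 other core genes are printed with the ARE core in capitals.

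PSMA4, chr15:78540649-78540678, plus strand: cgtgggcacgaTGACTCTGCaccgcctcct
PSMB3, chr17:38752626-38752655, plus strand: cgcctccgtttTGACTTTGCaaccaaacta
PSMD3, chr17:39980759-39980788, plus strand: ttcccctttgtTGACTCGGCcatcggcctg
PSMD12, chr17:67366724-67366753, minus strand: gagacaaaaccTGACGCTGCaggctggagt

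The heat shock element letters GAANNTTC were found for PSMC3IP alone among the members' genes, as 1 site that lies in 2 overlapping windows of the 52, against 6.77% of all promoters. The GAS letters TTCNNNGAA were in 8 windows, 15.4% against 7.66%, and CCAAT was in 21, 40.4% against 34.6%. None of the members' matches overlapped a match of another of these 5 motifs. A match is a stretch of letters and was not tested as a binding site.

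Within one library the core genes spanned a wide range of levels. Among the 28 core genes with at least 1 FPKM in every comparison, the vehicle library ran from 8.01 FPKM for PSMD6 to 140 FPKM for PSMB4 with a median of 36.3 FPKM. PSMD6 was the lowest of the 28 in 7 of the 8 libraries and PSMB4 the highest in 7 of the 8. The summed FPKM of the 28 genes was 1367 on vehicle, 961 on SP2509, 1504 on UNC0642 and 1898 on both compounds. It was 1106 without and 1330 with Dox in shLSD1, and 1168 and 1653 in shG9a. Scaled to 1000000 FPKM in the whole library these sums were 4758, 3473, 5393 and 6565 in the inhibitor table and 3588, 4096, 3799 and 4936 in the same order of the shRNA libraries, so the order of the libraries within each table was the same on both scales. SP2509 alone gave the lowest sum of the inhibitor libraries and the combination the highest.

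**Figure D1:**
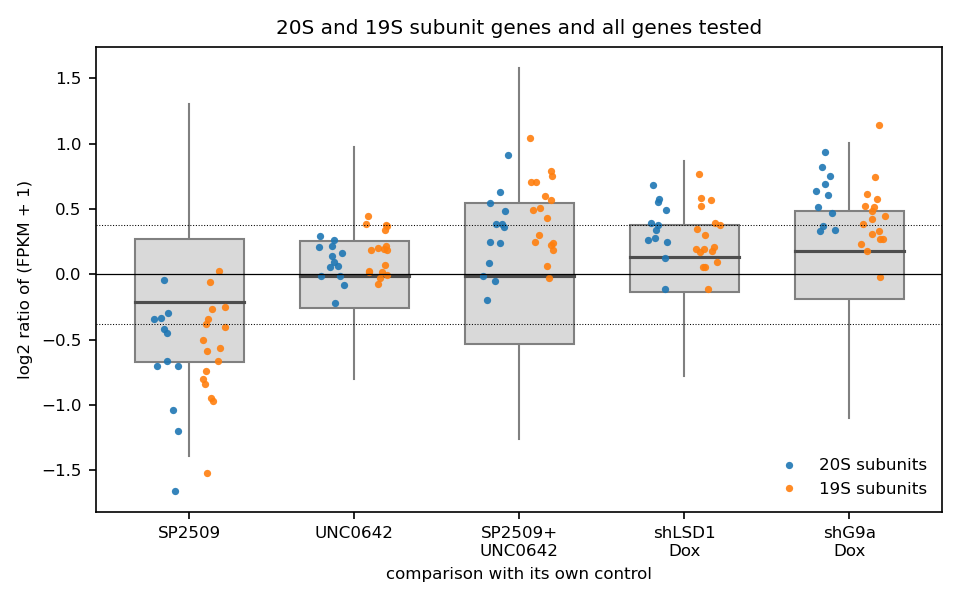
log2 ratio of (FPKM + 1), treated over its own control, on the vertical axis for each of 5 comparisons. Points are core genes that passed the level filter (blue, 20S; orange, 19S), the grey box holds the middle of all genes tested between the 25th and 75th percentiles with the median as a line, the grey line runs from the 5th to the 95th percentile, and dotted lines mark 1.3-fold; the median of the core genes was -0.57 with SP2509 and 0.38 with both compounds.

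SP2509 alone was accompanied by lower levels of most core genes. Of 29 core genes that passed the filter, 20 were called lower and 0 higher, where 39.9% of 13342 genes tested were called lower and 21.0% higher. The median log2 ratio of the core genes was -0.57, against -0.21 over all genes tested. After scaling by a trimmed mean, which lifts every ratio of this comparison by 0.30 on the log2 scale, 11 of the 29 were lower and 0 higher, with 24.9% of all genes lower and 34.1% higher. The fall was uneven between subunits of the same particle, as log2 ratios ran from -1.66 for PSMB2 to 0.03 for PSMD4. UNC0642 alone moved few of them: 3 of 30 were called higher (PSMD1, PSMD2 and PSMD11) and 0 lower, against 18.2% and 16.9% of 13244 genes, and the median was 0.15 against -0.01 over all genes.

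With both compounds, 16 of the 30 core genes that passed the filter were called higher and 0 lower, against 31.4% and 31.7% of 13907 genes, and the median log2 ratio was 0.38 against -0.02 over all genes. The other 14 were not called, and 4 of them lay below vehicle. In shLSD1, 10 of 29 were called higher and 0 lower, against 24.8% and 12.3% of 12970 genes, with a median of 0.30 against 0.13. After trimmed-mean scaling 7 of the 29 were higher and 0 lower, with 15.3% of all genes higher and 18.4% lower, and the median was 0.16. In shG9a, 18 of 28 were called higher and 0 lower, against 32.9% and 17.6% of 13080 genes, with a median of 0.47 against 0.18. After trimmed-mean scaling the count in shG9a was 9 of 28 higher and 0 lower, with 17.3% of all genes higher and 26.9% lower. The uninduced shG9a and shLSD1 libraries, which differed by no treatment, gave 0 core genes higher and 0 lower of 28, where 3.04% of 12449 genes were higher and 4.51% lower.

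The core genes that were called higher with Dox in both lines numbered 9: PSMA3, PSMA4, PSMA5, PSMB2, PSMB3, PSMC3, PSMC4, PSMD1 and PSMD3. Of the 11376 genes tested in all 5 comparisons, 13.4% were higher in both lines. All 9 were also called lower with SP2509 alone, as were 66.1% of the 1529 genes that were higher in both lines and 40.9% of the 11376. These calls are before scaling. After trimmed-mean scaling 7 core genes were higher in shLSD1 and 9 in shG9a, so not all 9 named genes keep both Dox calls. PSMB3 then also lost its SP2509 call, at a log2 ratio of -0.12. The overlaps over all genes were not recomputed after scaling. PSMB4, PSMC1 and PSMC6 were the 3 core genes that passed the filter in every comparison and were called in none, as were 9.70% of the 11376 genes. Across the 28 core genes the log2 ratios of the Dox comparisons in shLSD1 and shG9a, which share a table but no library, had a Pearson r of 0.68 and a Spearman rho of 0.63. Those of SP2509 and of shLSD1 with Dox, from separate tables, had an r of -0.53 and a rho of -0.52. These correlations were not computed over all genes, so they are not read as particular to the core genes.

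**Figure D2:**
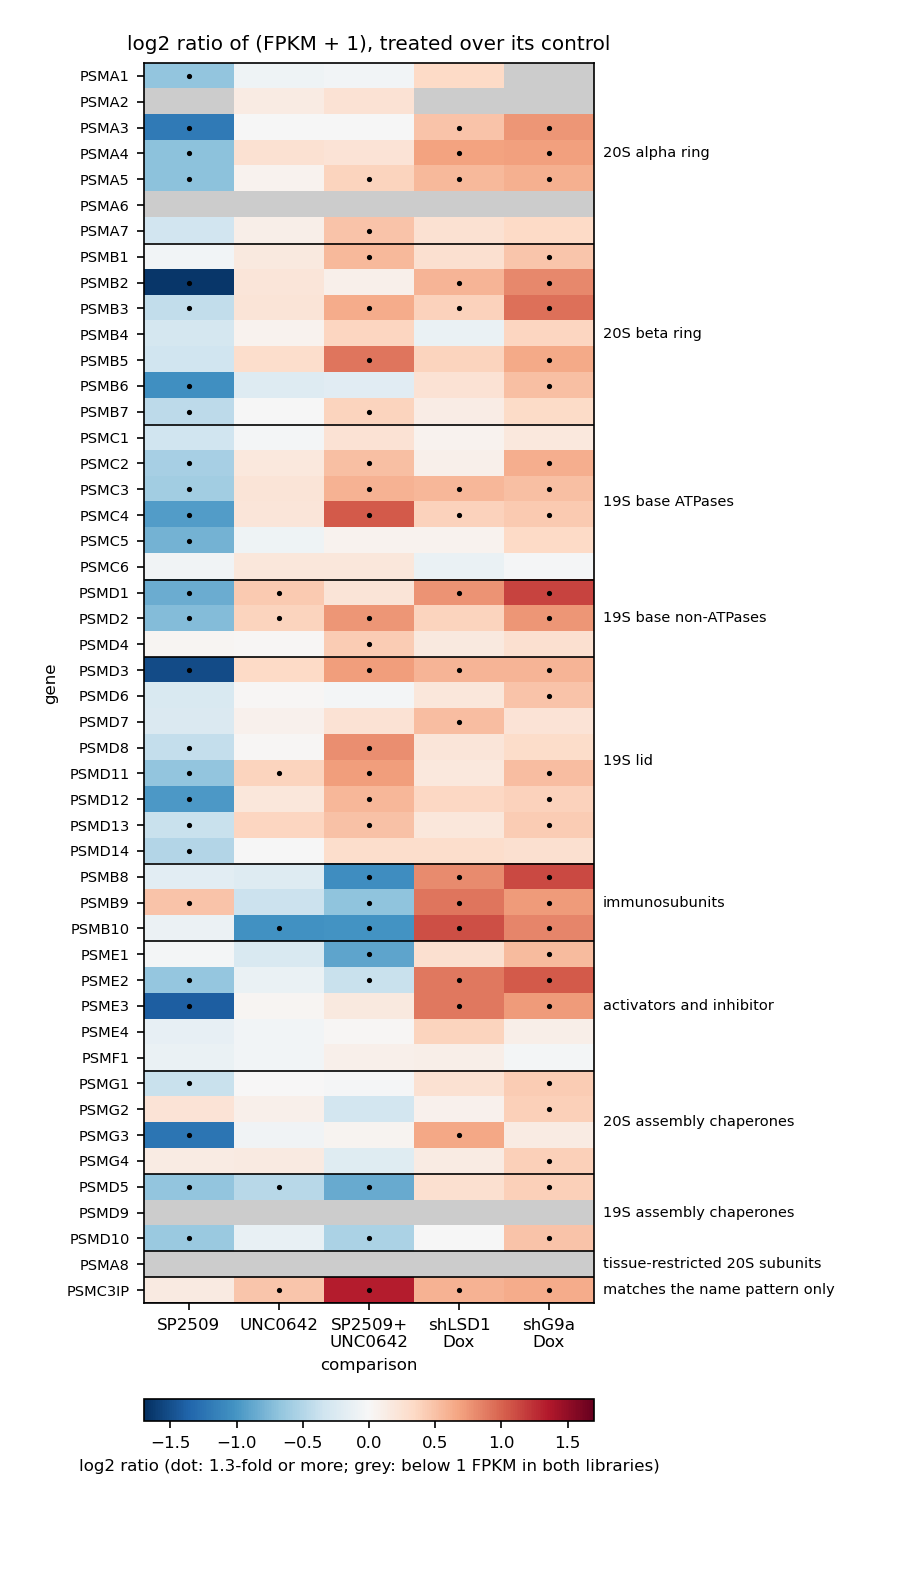
log2 ratio of (FPKM + 1) of each of the 48 members (rows, grouped by role) in 5 comparisons (columns), blue below and red above the control. A dot marks a ratio of at least 1.3-fold and grey a gene below 1 FPKM in both libraries or, for PSMA8 with the inhibitors, not listed; the immunosubunits are blue with both compounds (-1.05, -0.69 and -1.01) where most core genes are red.

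Where 4 inhibitor values are listed for a gene, they follow the order vehicle, SP2509, UNC0642 and both compounds, and each pair of values of an shRNA line is without and with Dox. In the alpha ring, which gates the barrel, PSMA3 had 72.5, 30.9, 71.9 and 71.9 FPKM across the inhibitor table, 43.2 and 61.0 FPKM in shLSD1 without and with Dox, and 46.3 and 78.7 FPKM in shG9a. PSMA4 stood at 27.3, 16.4, 32.9 and 32.4 FPKM with the 4 inhibitor conditions and went from 16.9 to 27.7 FPKM in shLSD1 and from 18.2 to 30.1 FPKM in shG9a. Both were lowest in the inhibitor series with SP2509 and rose with Dox in both lines. PSMA7 was at 125, 99.3, 134 and 176 FPKM in the inhibitor libraries, at 132 and 159 FPKM in shLSD1 and at 145 and 183 FPKM in shG9a. It was called in the combination only, as higher. PSMA5 ranged from 10.1 FPKM with SP2509 to 22.5 FPKM with the combination, and was called in every comparison except UNC0642.

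PSMA1, PSMA2 and PSMA6 were near the detection limit although they encode obligatory alpha subunits. PSMA1 had 1.45, 0.544, 1.32 and 1.36 FPKM across the inhibitor table, 0.785 and 1.26 FPKM in shLSD1 without and with Dox, and 0.549 and 0.910 FPKM in shG9a. PSMA2 lay between 0.525 and 1.32 FPKM and PSMA6 between 0.355 and 0.768 FPKM, so PSMA2 passed the filter in the UNC0642 and combination comparisons and PSMA6 in none. PSMD9, a chaperone of the 19S base, was as low, at 0.299 to 0.691 FPKM. In the GENCODE v44 annotation of GRCh38, which is not the annotation release used for the deposited values, 100% of the coding bases of PSMA2, 91.0% of PSMA1, 89.7% of PSMA6 and 68.3% of PSMD9 also lay in exons of another protein-coding gene on the same strand. PSMB10 was the fifth such member, with 60.0% of its coding bases shared, and reached 25.3 FPKM. The remaining members had no shared coding bases of this kind and, PSMA8 aside, each reached at least 2.49 FPKM in some library. The overlapping partners of PSMA2, PSMA6, PSMD9 and PSMB10 were listed at no more than 0.0197, 0.0444, 0.066 and 0.335 FPKM. Whether reads of shared exons were left out when genes were counted was not tested, and the levels of these 5 genes are uncertain. PSMC1 shared 47.7% of its coding bases with the antisense gene NRDE2, whose level did not exceed 1.24 FPKM, and the strand setting of the counting is not given in the sources used here.

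**Figure D3:**
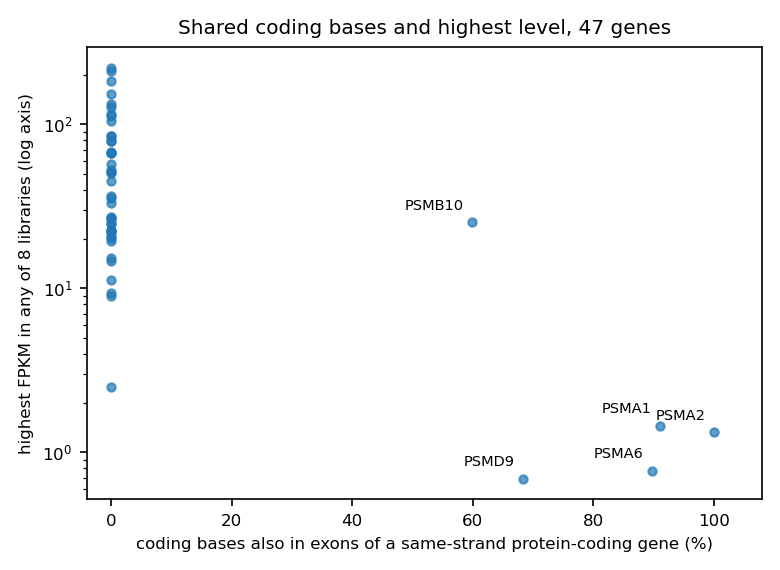
Highest FPKM of each of 47 members in any of the 8 libraries (vertical, log axis) against the percentage of its coding bases that lie in exons of another protein-coding gene on the same strand (horizontal). PSMA1, PSMA2, PSMA6 and PSMD9 lie at the lower right with at most 1.45 FPKM, and PSMB10 at 25.3 FPKM is the other member with shared bases.

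In the beta ring PSMB2, a structural subunit, had the largest fall of any member with SP2509. PSMB2 stood at 44.3, 13.4, 51.4 and 47.1 FPKM with the 4 inhibitor conditions and went from 25.3 to 38.2 FPKM in shLSD1 and from 28.3 to 50.7 FPKM in shG9a. Its FPKM ratio of SP2509 to vehicle was 0.302 (95% counting interval 0.282 to 0.323), while that of both compounds to vehicle was 1.06 (1.02 to 1.11). PSMB1, another structural subunit, was at 104.6, 101, 117 and 153 FPKM in the inhibitor libraries, at 83.1 and 101 FPKM in shLSD1 and at 83.5 and 116 FPKM in shG9a. Its ratio was 0.968 with SP2509 (0.926 to 1.01) and 1.46 with the combination (1.41 to 1.53). PSMB3 had 85.7, 64.03, 99.9 and 133 FPKM across the inhibitor table, 60.8 and 80.1 FPKM in shLSD1 without and with Dox, and 68.9 and 133 FPKM in shG9a. PSMB4 stood at 140, 114, 146 and 180 FPKM with the 4 inhibitor conditions and went from 169 to 156 FPKM in shLSD1 and from 172 to 222 FPKM in shG9a. PSMB3 had its highest log2 ratio in shG9a, 0.94, whereas PSMB4 was called in no comparison.

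The constitutive catalytic subunits differed among themselves. PSMB5, which carries the chymotrypsin-like beta5 site, was at 59.0, 46.2, 72.6 and 112 FPKM in the inhibitor libraries, at 49.9 and 65.0 FPKM in shLSD1 and at 51.0 and 80.0 FPKM in shG9a. Its ratio of the combination to vehicle was 1.90 (1.79 to 2.02). PSMB6, the beta1 caspase-like subunit, had 72.1, 34.6, 61.6 and 62.8 FPKM across the inhibitor table, 56.8 and 67.6 FPKM in shLSD1 without and with Dox, and 59.2 and 85.0 FPKM in shG9a. It was called lower with SP2509 at a log2 ratio of -1.04 and was not called with the combination at -0.20. PSMB7, the beta2 trypsin-like subunit, stood at 98.2, 71.6, 97.5 and 128 FPKM with the 4 inhibitor conditions and went from 90.4 to 98.7 FPKM in shLSD1 and from 92.1 to 116 FPKM in shG9a. The combination thus stood at log2 ratios of 0.92, -0.20 and 0.38 for PSMB5, PSMB6 and PSMB7.

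The ATPases that thread substrates into the barrel showed the highest core ratio of the combination. PSMC4 was at 38.0, 19.2, 43.96 and 79.3 FPKM in the inhibitor libraries, at 26.1 and 34.6 FPKM in shLSD1 and at 30.3 and 41.6 FPKM in shG9a. Its FPKM ratio was 2.09 (1.96 to 2.22) with both compounds and 0.505 (0.463 to 0.551) with SP2509 alone, which put the combination 4.13 times above SP2509 (3.82 to 4.46). PSMC3 had 55.7, 36.8, 65.0 and 84.7 FPKM across the inhibitor table, 39.5 and 59.0 FPKM in shLSD1 without and with Dox, and 43.3 and 62.3 FPKM in shG9a. PSMC2 stood at 24.6, 16.3, 28.1 and 35.4 FPKM with the 4 inhibitor conditions and went from 16.8 to 17.9 FPKM in shLSD1 and from 16.6 to 25.9 FPKM in shG9a. PSMC6, by contrast, was at 21.4, 20.6, 24.6 and 24.6 FPKM in the inhibitor libraries, at 18.6 and 17.1 FPKM in shLSD1 and at 18.0 and 17.7 FPKM in shG9a. Its log2 ratios lay between -0.11 and 0.19. PSMC5 had 12.9, 6.96, 12.2 and 13.5 FPKM across the inhibitor table, 11.2 and 11.7 FPKM in shLSD1 without and with Dox, and 11.9 and 15.2 FPKM in shG9a. It was called lower with SP2509 only. PSMC1 had log2 ratios from -0.34 to 0.24 and was not called.

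Of the base subunits without ATPase activity, PSMD1 and PSMD2 form the scaffold for ubiquitin-carrying factors and PSMD4 binds ubiquitin chains. PSMD1 stood at 32.7, 17.8, 44.9 and 38.2 FPKM with the 4 inhibitor conditions and went from 10.3 to 18.3 FPKM in shLSD1 and from 11.2 to 25.9 FPKM in shG9a. It was called in 4 comparisons, and its shG9a ratio of 2.32 (2.15 to 2.50) was the highest of any core gene in a Dox comparison. PSMD2 was at 68.1, 40.4, 89.0 and 115 FPKM in the inhibitor libraries, at 33.1 and 43.2 FPKM in shLSD1 and at 37.2 and 63.1 FPKM in shG9a. PSMD4 had 77.7, 79.2, 78.6 and 105.1 FPKM across the inhibitor table, 79.6 and 89.6 FPKM in shLSD1 without and with Dox, and 82.9 and 99.9 FPKM in shG9a. It was called with the combination alone.

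In the lid, PSMD14 is the deubiquitinase that releases the chain and the others are structural. PSMD3 stood at 34.6, 11.4, 43.96 and 57.2 FPKM with the 4 inhibitor conditions and went from 24.8 to 37.6 FPKM in shLSD1 and from 25.6 to 38.7 FPKM in shG9a. Its ratio was 0.330 with SP2509 (0.307 to 0.355) and 1.65 with both compounds (1.58 to 1.73). PSMD14 was at 21.8, 15.1, 21.7 and 27.1 FPKM in the inhibitor libraries, at 10.9 and 13.7 FPKM in shLSD1 and at 12.0 and 14.7 FPKM in shG9a. It was called lower with SP2509 and in no other comparison. PSMD8 had 38.2, 28.6, 38.6 and 66.7 FPKM across the inhibitor table, 35.9 and 41.5 FPKM in shLSD1 without and with Dox, and 39.5 and 49.1 FPKM in shG9a. PSMD11 stood at 22.0, 13.5, 29.1 and 36.6 FPKM with the 4 inhibitor conditions and went from 12.2 to 13.9 FPKM in shLSD1 and from 13.3 to 19.5 FPKM in shG9a. Both were called lower with SP2509 and higher with the combination, as were PSMD12 and PSMD13. PSMD6 was at 8.01, 6.51, 8.18 and 7.82 FPKM in the inhibitor libraries, at 5.95 and 6.96 FPKM in shLSD1 and at 6.18 and 9.02 FPKM in shG9a. PSMD7 had 22.6, 18.9, 23.8 and 27.0 FPKM across the inhibitor table, 14.1 and 20.7 FPKM in shLSD1 without and with Dox, and 15.3 and 18.1 FPKM in shG9a. These 2 were not called with any inhibitor, and each was called higher with Dox in 1 line, PSMD6 in shG9a and PSMD7 in shLSD1.

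The immunosubunits were lower with both compounds, while called core genes were higher. With both compounds all 3 were called lower, where 16 of 30 core genes were called higher. Of the 13907 genes tested, 31.7% were lower and 31.4% higher. PSMB8, the inducible beta5 subunit at chr6:32840717-32844703, stood at 29.1, 25.6, 24.97 and 13.6 FPKM with the 4 inhibitor conditions and went from 34.3 to 60.4 FPKM in shLSD1 and from 30.8 to 68.1 FPKM in shG9a. PSMB9, the inducible beta1 subunit at chr6:32844136-32859585, was at 11.0, 15.8, 8.26 and 6.44 FPKM in the inhibitor libraries, at 27.4 and 52.4 FPKM in shLSD1 and at 28.3 and 47.6 FPKM in shG9a. PSMB10, the inducible beta2 subunit at chr16:67934502-67937087, had 6.75, 6.24, 2.81 and 2.85 FPKM across the inhibitor table, 10.4 and 23.5 FPKM in shLSD1 without and with Dox, and 13.8 and 25.3 FPKM in shG9a. The FPKM ratio of the combination to vehicle was 0.465 (0.415 to 0.521) for PSMB8, 0.587 (0.510 to 0.674) for PSMB9 and 0.421 (0.324 to 0.544) for PSMB10.

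Of the single compounds, SP2509 came with a call for PSMB9 only and UNC0642 for PSMB10 only. PSMB10, whose coding bases are shared in part with an overlapping gene, was already at 0.415 of vehicle with UNC0642 alone (0.321 to 0.534), and the addition of SP2509 left it at 1.01 times the UNC0642 level (0.750 to 1.37). PSMB8 was not called with either compound alone, at log2 ratios of -0.18 and -0.21, and fell by 0.84 on the log2 scale between UNC0642 and the combination. PSMB9 was called higher with SP2509, at a log2 ratio of 0.49, and stood at -0.37 with UNC0642, just inside the threshold. With Dox all 3 were called higher in both lines. Of all genes tested, 24.8% were higher in shLSD1 and 32.9% in shG9a. Of the 11376 genes tested in all 5 comparisons, 13.4% were higher in both lines. The ratios in shLSD1 were 1.76 for PSMB8 (1.66 to 1.87), 1.91 for PSMB9 (1.80 to 2.04) and 2.26 for PSMB10 (1.98 to 2.57), and those in shG9a were 2.21 (2.08 to 2.35), 1.68 (1.58 to 1.79) and 1.84 (1.63 to 2.07).

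**Figure D4:**
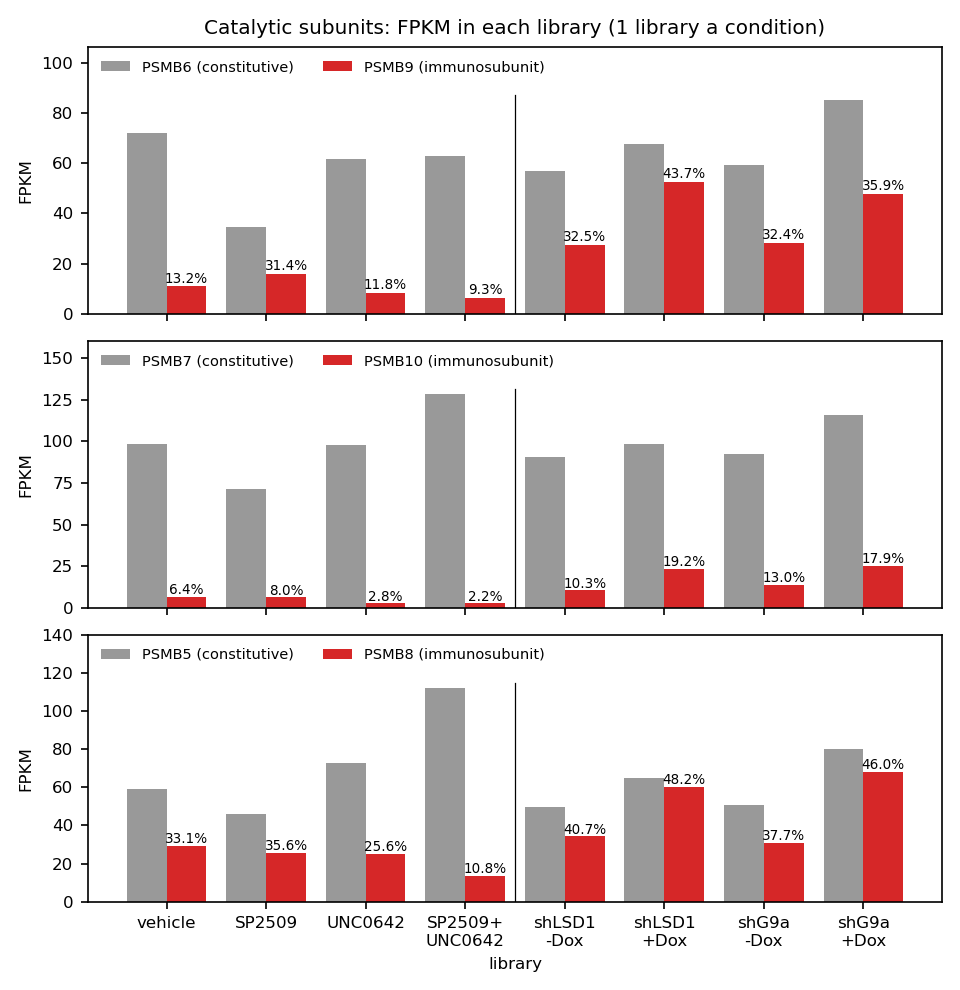
FPKM (vertical, from 0) of each immunosubunit (red) and the constitutive subunit of the same catalytic site (grey) in the 8 libraries, with the immunosubunit's percentage of the pair above its bar; the vertical line separates the 2 tables. The PSMB8 percentage is 33.1% with vehicle and 10.8% with both compounds, and 40.7% and 48.2% without and with Dox in shLSD1.

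Set against the constitutive subunit of the same site, the immunosubunit share of the pair was lowest with the combination at each site. PSMB8 made up 33.1% of PSMB8 and PSMB5 on vehicle, 35.6% on SP2509, 25.6% on UNC0642 and 10.8% on both. PSMB9 made up 13.2% of PSMB9 and PSMB6 on vehicle, 31.4% on SP2509, 11.8% on UNC0642 and 9.31% on both. PSMB10 made up 6.43%, 8.02%, 2.80% and 2.17% of PSMB10 and PSMB7 in the same order. The high PSMB9 share with SP2509 came with a PSMB6 level of 34.6 FPKM, the lowest of the 8 libraries. With Dox the shares went from 40.7% to 48.2%, 32.5% to 43.7% and 10.3% to 19.2% at beta5, beta1 and beta2 in shLSD1, and from 37.7% to 46.0%, 32.4% to 35.9% and 13.0% to 17.9% in shG9a. In shG9a the constitutive partners PSMB5 and PSMB6 were called higher with Dox as well, at log2 ratios of 0.64 and 0.52.

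PSME1 and PSME2, which form the interferon-inducible PA28 ring that opens the barrel, were called with the immunosubunits in the combination and in shG9a. PSME1, at chr14:24136158-24138967, stood at 131, 128, 109 and 69.95 FPKM with the 4 inhibitor conditions and went from 156 to 189 FPKM in shLSD1 and from 146 to 212 FPKM in shG9a. PSME2, its neighbour on the opposite strand at chr14:24143362-24147570, was at 35.5, 22.0, 32.7 and 27.0 FPKM in the inhibitor libraries, at 27.8 and 52.5 FPKM in shLSD1 and at 31.7 and 66.6 FPKM in shG9a. The combination gave ratios of 0.534 for PSME1 (0.506 to 0.564) and 0.761 for PSME2 (0.713 to 0.813), and PSME2 was called higher in both lines with Dox at 1.89 (1.78 to 2.00) and 2.10 (1.99 to 2.22). PSME1 was called higher in shG9a alone, its log2 ratio in shLSD1 being 0.28. PSME2 but not PSME1 was called lower with SP2509, at log2 ratios of -0.66 and -0.03.

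The other regulators followed different patterns. PSME3, the nuclear PA28 homologue that is not part of the interferon response, had 45.0, 16.4, 45.9 and 50.6 FPKM across the inhibitor table, 20.7 and 39.5 FPKM in shLSD1 without and with Dox, and 23.5 and 39.5 FPKM in shG9a. It was called lower with SP2509 at a ratio of 0.364 (0.342 to 0.387), higher in both lines with Dox, and not called with the combination. PSMF1, the inhibitor PI31, stood at 18.9, 17.4, 18.3 and 20.1 FPKM with the 4 inhibitor conditions and went from 18.7 to 20.2 FPKM in shLSD1 and from 17.6 to 17.2 FPKM in shG9a. PSMF1 and PSME4, the PA200 activator, were called in no comparison.

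Among the 4 chaperones that assemble the 20S core, PSMG3 was at 13.8, 5.24, 13.2 and 14.3 FPKM in the inhibitor libraries, at 13.7 and 22.2 FPKM in shLSD1 and at 14.3 and 15.97 FPKM in shG9a. It was called lower with SP2509 and higher in shLSD1. PSMG2 had 8.41, 10.01, 9.03 and 6.57 FPKM across the inhibitor table, 7.74 and 8.22 FPKM in shLSD1 without and with Dox, and 8.27 and 11.3 FPKM in shG9a. It was called higher in shG9a with Dox, as were PSMG1 and PSMG4. PSMG4 stood at 1.80, 2.07, 2.12 and 1.42 FPKM with the 4 inhibitor conditions and went from 1.67 to 1.94 FPKM in shLSD1 and from 1.64 to 2.49 FPKM in shG9a. Its promoter shares the printed ISRE letters with PSMB8, PSMB10, PSME1 and PSME2. In the combination PSMG4 had a log2 ratio of -0.21 and in shLSD1 of 0.14, both short of the threshold. PSMD5 and PSMD10, which hold ATPases during base assembly, were called lower with the combination. PSMD5 was at 22.0, 13.4, 15.6 and 11.8 FPKM in the inhibitor libraries, at 11.5 and 14.1 FPKM in shLSD1 and at 13.6 and 18.3 FPKM in shG9a. PSMD10 had 18.8, 11.8, 17.1 and 12.6 FPKM across the inhibitor table, 17.5 and 17.4 FPKM in shLSD1 without and with Dox, and 17.6 and 24.9 FPKM in shG9a. Both were also called lower with SP2509 and higher in shG9a with Dox, and PSMD5 was called lower with UNC0642 alone, at a log2 ratio of -0.48.

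PSMA8, a testis subunit, was at 0 FPKM in 3 of the shRNA libraries and at 0.0305 FPKM in shG9a with Dox, which was 1 read. PSMC3IP, the name match that is not a subunit, stood at 3.10, 3.56, 4.69 and 9.30 FPKM with the 4 inhibitor conditions and went from 0.985 to 2.00 FPKM in shLSD1 and from 1.22 to 2.45 FPKM in shG9a. It had the highest log2 ratio of all members in the combination, 1.33.

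**Figure D5:**
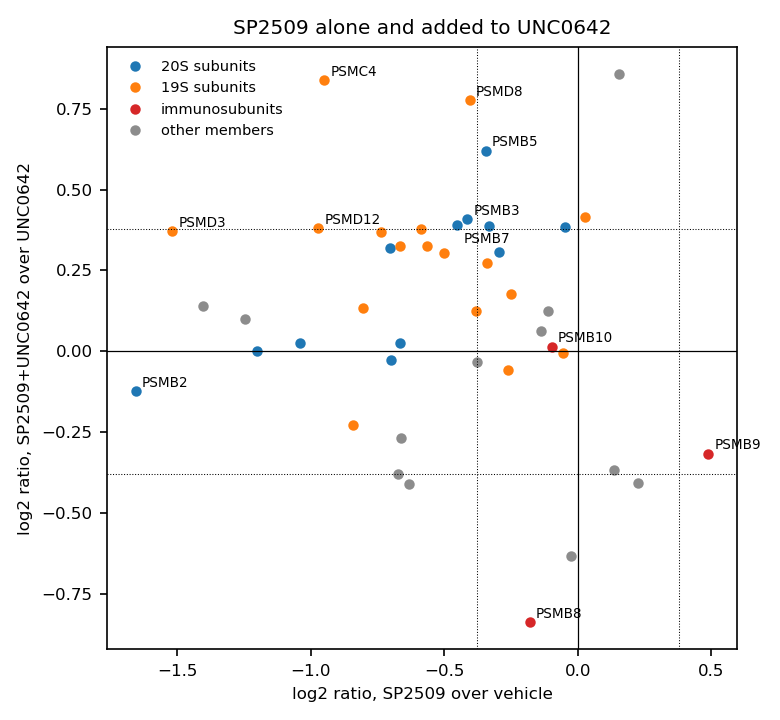
log2 ratio of (FPKM + 1) for SP2509 over vehicle (horizontal) and for SP2509+UNC0642 over UNC0642 (vertical), 2 contrasts that share no library; each point is a member that passed the filter in both, and dotted lines mark 1.3-fold. PSMC4 lies at -0.95 and 0.84, while PSMB8 lies at -0.18 and -0.84.

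The contribution of SP2509 was read again on cells that also had UNC0642. Among the 47 members of the inhibitor table, 5 were called lower with SP2509 against vehicle and higher with SP2509+UNC0642 against UNC0642. In the first contrast 39.9% of 13342 genes were lower, and in the second 27.7% of 13637 were higher and 27.1% lower. The share of all genes with both calls was not computed, so the count of 5 is no result about the members. The 5 were the core genes PSMB3, PSMB7, PSMC4, PSMD8 and PSMD12. Only PSMD10 was called in the same direction, lower, in both. Against SP2509 alone, the combination was higher at PSMD3 by 5.01-fold (4.68 to 5.36) and at PSMB2 by 3.52-fold (3.29 to 3.76), and 41.8% of 13658 genes were higher in that contrast.

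Genes outside the symbol pattern were read by lists, whose counts stand against the shares of all genes tested. These shares, higher and lower, were 21.0% and 39.9% with SP2509, 18.2% and 16.9% with UNC0642, 31.4% and 31.7% with the combination, 24.8% and 12.3% in shLSD1 and 32.9% and 17.6% in shG9a. Counts of a list near these shares are no result about the list. Of 10 further subunits and partners, 1 was called higher and 5 lower with SP2509, 1 and 2 with UNC0642, 3 and 3 with the combination, 2 and 0 in shLSD1 and 1 and 2 in shG9a, counts near those shares with SP2509 and the combination. The assembly factor POMP was at 82.8 FPKM on vehicle, 91.0 on SP2509, 129 on UNC0642 and 184 on both compounds, and was called higher in shG9a at a log2 ratio of 0.49. The stress scaffold ECPAS was called lower with each inhibitor and the combination, at -0.65, -0.50 and -1.38, and the phosphatase UBLCP1, which acts on the proteasome, at -1.36, -0.41 and -1.28. UBLCP1 was called in opposite directions with Dox, at 0.41 in shLSD1 and -0.39 in shG9a. AKIRIN2, which carries proteasomes into the nucleus, was at -0.91 with SP2509, 0.39 with both compounds and -0.88 in shG9a. The subunit SEM1 and the ubiquitin receptor ADRM1 were called in none.

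Of 7 genes around the NRF1 factor, 4 were called higher and 3 lower with the combination, 2 and 2 with each single compound, 0 and 2 in shLSD1 and 1 and 3 in shG9a. NFE2L1 itself was at 69.6 FPKM on vehicle, 63.1 on SP2509, 46.9 on UNC0642 and 52.5 on both, and at 99.2 and 65.3 FPKM without and with Dox in shG9a, so its transcript was called lower with UNC0642, with the combination and in shG9a. Its activating protease DDI2 was called lower with SP2509 (-0.69) and higher with the combination (0.41) and in shG9a (0.55). The small MAF partners MAFF and MAFK were called higher with each compound and the combination, up to log2 ratios of 2.78 and 2.45, and lower in shG9a at -2.36 and -1.52, and MAFK also in shLSD1 at -0.84. The third small MAF, MAFG, was called lower with SP2509 at -0.95 and higher with the combination at 1.41, and was not called with UNC0642 at 0.37.

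Of the 3 genes UBB, RPS27A and UBA1, which encode ubiquitin or its activating enzyme, 1 was called higher and 1 lower with SP2509, 0 and 0 with UNC0642, 1 and 0 with the combination, 0 and 0 in shLSD1 and 2 and 0 in shG9a. UBB was called higher with SP2509 (0.39), the combination (1.43) and in shG9a (0.81). Of 12 shuttle and unfoldase genes, 1 was called higher and 6 lower with SP2509, 2 and 1 with UNC0642, 8 and 1 with the combination, 2 and 0 in shLSD1 and 4 and 3 in shG9a. VCP, the p97 unfoldase, was at 65.0 FPKM with vehicle and 16.6 FPKM with SP2509 and at 85.7 FPKM with both, and its cofactor NPLOC4 was at 12.1, 5.90 and 20.7 FPKM. Both were called higher in both lines with Dox, VCP at 0.78 and 0.71 and NPLOC4 at 0.60 and 0.63. The third partner of that complex, UFD1, was called higher with UNC0642 (0.38), the combination (1.66) and in shG9a (0.50), and the arsenite-inducible ZFAND2A was called lower with SP2509, UNC0642 and in shG9a and higher with the combination (-0.80, -1.22, -1.13 and 0.43).

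Of the interferon-linked genes IRF1, NLRC5 and TAP1, 3 of 3 were called higher with Dox in both lines, against 24.8% of all genes in shLSD1 and 32.9% in shG9a, or 15.3% and 17.3% after trimmed-mean scaling, while in the combination 1 was called higher and 0 lower. The transcription factor IRF1 was at 9.41 and 16.4 FPKM without and with Dox in shLSD1 and at 8.19 and 14.4 FPKM in shG9a, and NLRC5, the MHC class I transactivator, at 0.923 and 2.47 FPKM and at 0.864 and 2.24 FPKM. With the inhibitors IRF1 was at 6.39 FPKM on vehicle, 7.51 on SP2509, 2.72 on UNC0642 and 5.85 on both, so it was called lower with UNC0642 alone. In the combination NLRC5 was called higher at 0.51, and TAP1, the peptide transporter whose gene adjoins PSMB9, had a log2 ratio of 0.06 where PSMB9 had -0.69. TAP1 was called higher with SP2509 as PSMB9 was, at 0.49 for both.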

How the data were processed

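RNA from 8 Kyse510 cultures, 1 library per condition, was sequenced as paired ends. The authors mapped the reads to GRCh38 and deposited FPKM per gene, with gene symbol, biotype and position, in 2 tables, one for the inhibitor libraries and one for the shRNA libraries. The aligner, the counting tool and its strand setting are not given in the sources used here, and the tables were not compared with each other by any ratio. Members, gene lists and motifs were chosen with earlier results of these data known.

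Ratios were taken as log2 of (FPKM + 1), each treated library over its own control, for genes with at least 1 FPKM in at least 1 of the 2 libraries, and a gene was called at 1.3-fold. All shares of genes called come from the whole table. FPKM ratios without a pseudocount were given exact Clopper-Pearson 95% counting intervals from estimated whole reads. Library totals came from genes with 1 exon, whose values were whole within 0.02 in 100% of cases. For other genes the length was estimated too, starting from the smallest that gave whole reads. Lengths so found differed between the 2 tables for PSMA5, PSMA6, PSMD14 and PSMB8 (2006 and 2997 bases for PSMB8). Read counts and interval widths of such genes are therefore uncertain. The reads so recovered summed to 98.81% to 99.73% of the library totals, which limits the precision of low genes. PCR duplicates make such intervals too narrow. The steps were also run on simulated reads drawn from the recovered lengths and totals, without duplicates or spread between cultures. That run accepted any length that divides the true one, so it checks neither full lengths nor calls between cultures. Genes were named by these rules: all immunosubunits and constitutive counterparts, PSME1 and PSME2, the members with the highest and the lowest ratio of each role in each comparison, and pathway genes called in at least 3 of 5 comparisons; other members were given by range or count. Some genes of the pathway lists are not reported here. Coding overlaps used GENCODE v44, and promoters were RefSeq windows of GRCh38.p14. Alternatives changed the pseudocount, the level filter, the fold, the scaling or the control of the Dox comparisons, or added an unadjusted exact binomial test on the reads. That test covers the sampling of reads and not the spread between cultures. Python 3.11.15, numpy 2.4.6, pandas 2.3.3 and scipy 1.17.1 were used. No column of another sample was present.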

Additional observations from a re-analysis of the deposited data

Results flagged for a closer look

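Members called in opposite directions for SP2509 without and with UNC0642 were singled out for a closer look. SP2509 was added either to vehicle cells or to UNC0642 cells, and the difference between these effects was not tested, since each rests on 2 libraries. How many of all genes had such opposite calls was not computed, so the pattern is not read as particular to the members. PSMC4 went from 38.0 to 19.2 FPKM with SP2509 alone (log2 ratio -0.95) and from 43.96 to 79.3 FPKM when SP2509 was added to UNC0642 (0.84). PSMD12 went from 17.6 to 8.46 FPKM (-0.97) and from 20.1 to 26.6 FPKM (0.38). PSMD8 went from 38.2 to 28.6 FPKM (-0.40) and from 38.6 to 66.7 FPKM (0.78). PSMB3 had log2 ratios of -0.42 and 0.41, and PSMB7 of -0.45 and 0.39. After trimmed-mean scaling the SP2509 ratio stayed past the threshold for PSMC4 (-0.65) and PSMD12 (-0.67) and not for PSMD8 (-0.11), PSMB3 (-0.12) or PSMB7 (-0.15), and the ratios on UNC0642 were 0.80 for PSMC4, 0.74 for PSMD8, 0.38 for PSMB3, 0.36 for PSMB7 and 0.35 for PSMD12. No member was called in opposite directions with UNC0642 without and with SP2509, or with Dox in shLSD1 and in shG9a. With Dox and before scaling, 15 of 48 members, PSMC3IP among them, were called higher in both lines. Of the 48, 44 passed the filter in shLSD1 and 43 in shG9a. Of the 11376 genes tested in all 5 comparisons, 13.4% were higher in both lines.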

How the results depend on the processing

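With 15 counts and medians of the core genes recomputed under 9 other settings, 93 of 111 values stayed within 1.5 times the reported count, or for medians within 0.0891 on the log2 scale, the core median difference between the uninduced lines. The 93 include the count of the direction without calls in each comparison, which stayed at 0 in every setting. A change of direction was read for medians only, and 0 medians changed sign. A fold of 1.5 left 0 genes higher with UNC0642, 8 with the combination, 2 in shLSD1 and 9 in shG9a, and a fold of 2 left 4 lower with SP2509 and 0, 1, 0 and 1 higher in the same order. Centring on the median gene gave core medians of -0.46 with SP2509, 0.18 in shLSD1 and 0.32 in shG9a, where 10 genes were higher. Trimmed-mean scaling gave 11 genes lower with SP2509 and a median of -0.27, a median of 0.16 in shLSD1, and 9 genes higher and a median of 0.25 in shG9a. The scaling alternatives shift all genes, and which scale is nearer to the cells' RNA content was not tested. No paired analysis was possible because each condition has 1 library and the labels give no replicate numbers. Leaving out a library was likewise not possible, since each comparison has 1 library on each side. With 1 library per condition the spread between cultures is unknown, and genes under 1 FPKM rest on few reads.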

Other observations

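Besides the protein-coding members, 18 genes with the same symbol pattern were pseudogenes, antisense or long noncoding RNAs, and 8 of them reached 1 FPKM in some library. PSMA3-AS1, which is antisense to PSMA3, was at 7.35 FPKM on vehicle, 2.19 on SP2509, 7.08 on UNC0642 and 5.57 on both, and at 5.82 and 8.75 FPKM without and with Dox in shLSD1 and 5.22 and 8.82 in shG9a. Like PSMA3, it was lower with SP2509 and higher with Dox in both lines by at least 1.3-fold. In GENCODE v44, 0 of the 765 coding bases of PSMA3 lay in exons on the opposite strand. Overlap outside the coding bases was not examined, the strand setting is not given, and whether reads of one were counted for the other was not tested. PSMB8-AS1, a noncoding gene beside PSMB8, was at 1.21, 0.346, 0.802 and 0.972 FPKM in the inhibitor libraries, and at 1.91 and 3.31 FPKM without and with Dox in shLSD1 and 0.837 and 4.53 FPKM in shG9a. It was higher by at least 1.3-fold with Dox in both lines, as PSMB8 was.

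Processed pseudogenes of 2 of the core genes were listed above 1 FPKM in every library. PSMA6P1 was at 1.36 to 4.26 FPKM, above the 0.355 to 0.768 FPKM of PSMA6 in every library, and PSMC1P1 at 1.19 to 2.85 FPKM. These levels rest on few reads. In the inhibitor libraries PSMA6P1 had 17 to 24 reads against 45 to 89 for PSMA6. In the shRNA libraries it had 35 to 56 against 8 to 13, with the length of PSMA6 uncertain. PSMC1P1 had 28 to 59 reads in the inhibitor libraries against 1038 to 1527 for PSMC1. How reads that fit a gene and its pseudogene were counted was not tested. PSMD10P2 was at 2.89 FPKM with both compounds and at no more than 0.311 FPKM in the other 7 libraries, whereas PSMD10 itself was lower with both compounds.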
